A study of Mus musculus with 20 samples.

Results

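The genes described here encode proteins that set sodium, potassium and chloride gradients and currents across the muscle fibre membrane. They are the sodium pump subunit genes Atp1b1 and Atp1b2, the pump regulator Fxyd1, the chloride channel gene Clcn1 and the sodium channel gene Scn4a. They were chosen by symbol, and the 5 genes matched 5 of 56941 rows of a count table of mouse soleus muscle. The soleus is a hind-limb muscle rich in slow, oxidative fibres, and the whole muscle of one limb was taken from C57BL/6J mice. Controls were 10 mice with sham-irradiation. The other 10 mice, the exposed group, had their hind limbs unloaded for 14 days and also received ionizing radiation and a stress hormone, the stress being given in the diet. Since the 3 treatments were given together, their effects cannot be told apart. The labels used here state no age, sex or radiation dose, and name no engineered allele for either group.

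The sodium pump, or Na,K-ATPase, exports sodium and imports potassium at the cost of ATP, and so restores the gradients that every action potential runs down. Its alpha subunit carries out transport, its beta subunit is needed for folding and delivery to the membrane, and a small FXYD protein tunes its activity. In skeletal muscle, the channel encoded by Scn4a carries the sodium current of the action potential. The channel encoded by Clcn1 carries most of the resting chloride current, which steadies the membrane, and its loss causes myotonia, a delayed relaxation of muscle.

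The libraries held between 17336017 and 43424464 counts, and 16778 genes passed the count filter. Levels are normalised read counts in CPM, scaled to library size with trimmed mean factors (TMM). The heavy chains of slow and type IIA fibres, Myh7 and Myh2, stood at 10180 ± 1151 and 10020 ± 798 CPM in controls (SD, n = 10), and at 4650 ± 1858 and 320.9 ± 257 CPM in exposed libraries. Of the 4 fibre myosins these 2 were lower, while the fast-fibre heavy chains Myh1 and Myh4 were higher. Every exposed library was above every control for both Myh1 and Myh4, and below every control for both Myh7 and Myh2. Such separation held for 6.48% (exposed higher) and 11.0% (exposed lower) of all tested genes. Of 5 further muscle fibre genes, 1 was higher and 2 were lower. Exposed replicates 1 to 4 stood apart from all other libraries by their nerve markers. The summed level of 9 Schwann cell and myelin genes was 522.9 to 1514 CPM there, 99.3 to 188.8 CPM in exposed replicates 5 to 10 and 99.0 to 197.4 CPM in controls. All 9 were higher in the exposed group, and none was at 0. Of all tested genes, 57.6% passed the edgeR test between the groups at an adjusted p under 0.05. Of the markers of endothelium, of fibroblasts, and of smooth muscle and pericytes, 2 of 5, 5 of 5 and 3 of 5 passed it. Of 5 macrophage genes, 1 passed it, and of 4 adipocyte and 5 red blood cell genes, none. The summed adipocyte genes also set exposed replicates 1 to 4 apart from 5 to 10, at 70.5 to 169.2 CPM against 9.72 to 68.1 CPM, and controls lay at 11.0 to 87.2 CPM. The part of these cells in the results below was not tested, apart from the values without exposed replicates 1 to 4.

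Promoter sequences are shown because members moved in opposite directions, so that a reader can compare the letters upstream of a pair that fell with those of a gene that rose. RefSeq windows on build GRCm38.p6 were found for Atp1b1, Fxyd1, Clcn1 and Scn4a. The counts were made on GRCm39, and the windows were matched by symbol. The bases before the annotated start are shown 5′ to 3′ on the gene's own strand for the pair of genes that fell and for Clcn1, the member with the smallest adjusted p. The Fxyd1 sequence runs on for 7 bases past the start, to the end of a match that begins 1 base before it. Capitals mark matches, on either strand, to 5 short patterns: TATTTATA, the core of an A/T-rich element of the kind bound by MEF2 factors, the E-box CANNTG, the GC box GGGCGG, the CCAAT box CCAAT, and AGAACA, one arm of glucocorticoid response elements.
Atp1b1, chr1:164458356-164458605, minus strand: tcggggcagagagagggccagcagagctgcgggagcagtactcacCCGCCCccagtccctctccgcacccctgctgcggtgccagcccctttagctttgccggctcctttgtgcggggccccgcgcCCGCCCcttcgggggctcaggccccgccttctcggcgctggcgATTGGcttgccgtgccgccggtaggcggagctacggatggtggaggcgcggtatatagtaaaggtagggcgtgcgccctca
Fxyd1, chr7:31054847-31055103, minus strand: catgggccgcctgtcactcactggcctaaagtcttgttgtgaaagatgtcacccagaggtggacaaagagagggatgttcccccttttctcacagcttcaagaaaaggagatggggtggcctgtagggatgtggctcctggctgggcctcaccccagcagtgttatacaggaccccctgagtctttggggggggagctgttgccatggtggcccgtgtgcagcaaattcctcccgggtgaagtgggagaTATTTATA
Clcn1, chr6:42286435-42286684, plus strand: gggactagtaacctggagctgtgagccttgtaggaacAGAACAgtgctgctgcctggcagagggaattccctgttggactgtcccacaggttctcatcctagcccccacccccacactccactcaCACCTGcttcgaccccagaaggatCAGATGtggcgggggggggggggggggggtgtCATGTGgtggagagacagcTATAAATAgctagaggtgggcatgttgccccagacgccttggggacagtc

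The Clcn1 window held the A/T-rich core with its first base 50 bases before the start, and the Fxyd1 window held it across the start, with all but its first base past the start. This core was present in 1.70% of 32851 such windows of 300 bases. Clcn1 also held 3 E-boxes, a pattern found in 72.3% of windows, and 1 glucocorticoid arm, found in 19.0%. Atp1b1 held 2 GC boxes and 2 CCAAT boxes (1 of them past the start and not shown), which 35.7% and 37.4% of windows contained. Fxyd1 and Clcn1, which share the A/T-rich core, moved in opposite directions (below), and a match describes letters only, not a bound site.

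The exposed muscles had less RNA of the beta subunit gene Atp1b1 and of Fxyd1, and more of the beta subunit gene Atp1b2, of Clcn1 and, by a small margin, of Scn4a. All 5 genes passed the edgeR quasi-likelihood test at an adjusted p under 0.05, where 57.6% of all tested genes did. By direction, 3 members were higher and 2 lower, against 28.7% and 28.9% of tested genes. For 4 of the 5 the groups did not overlap, against 17.4% of tested genes. Of these 4, 2 were higher and 2 lower in exposed libraries, against 6.48% and 11.0% of tested genes. Without exposed replicates 1 to 4 all 5 passed the test, against 51.3% of tested genes. In bulk muscle, fewer fibres of a type and less RNA per fibre cannot be told apart.

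**Figure D1:**
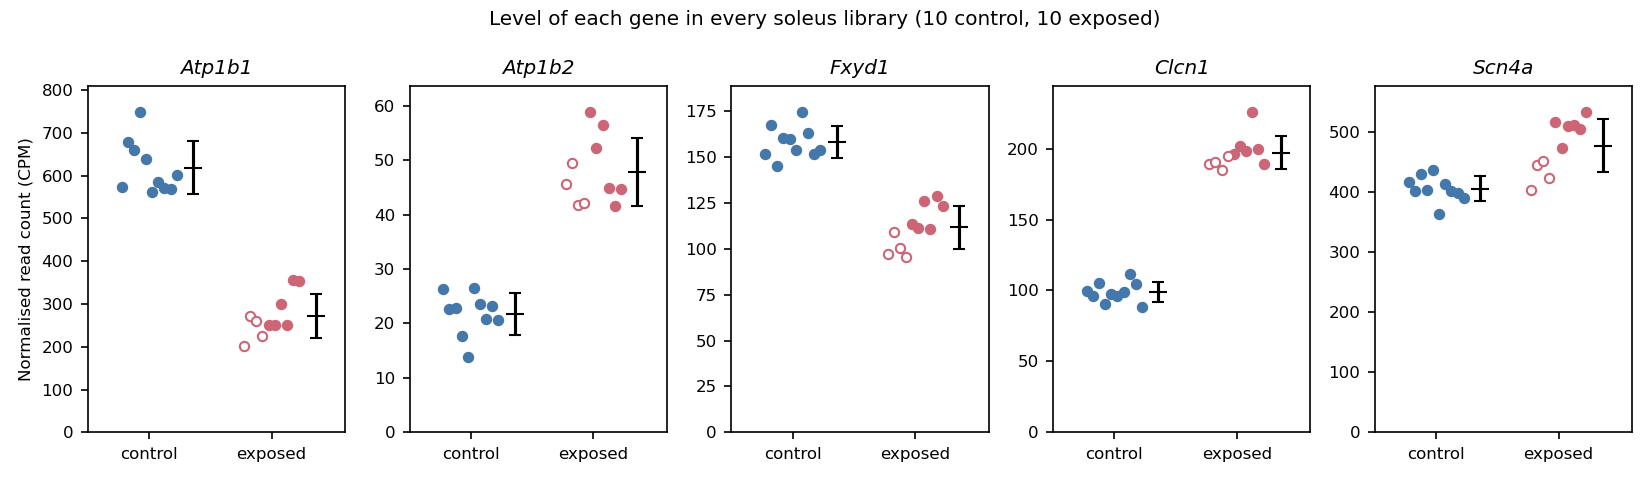
Normalised read count (CPM, linear axes from 0) of each gene in 10 control and 10 exposed libraries. Each point is a library, open points are exposed replicates 1 to 4, and black bars give the mean and SD. Groups are separate for Atp1b1, Atp1b2, Fxyd1 and Clcn1, while for Scn4a exposed values from 404.1 CPM overlap controls of up to 437.8 CPM.

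Atp1b1 encodes the main beta subunit of the pump in this muscle, which holds the alpha subunit in a stable form on its way to the membrane. Control libraries lay between 561.6 and 749.7 CPM, with a median of 594.2. Exposed libraries lay between 202 and 357 CPM, with a median of 255.9. The highest exposed library, replicate 9, was thus far below the lowest control, replicate 6. The mean was 619 ± 61.8 CPM for controls and 272.6 ± 51.0 CPM for the exposed group (SD, n = 10 each), or 2.27-fold lower (log2 fold change -1.18 ± 0.094 SE, edgeR adjusted p = 1.02e-10). Of its exon bases, 575 are shared with Nme7 on the opposite strand in the annotation used, and whether counting used strand is not stated in the labels used here. The level of Nme7 was 1.33 CPM for controls and 1.37 CPM for the exposed group.

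Atp1b2 encodes the second beta subunit, known in the nervous system as an adhesion molecule of glia and in muscle from fast fibres. Control libraries held 13.8 to 26.6 CPM (median 22.7) and exposed libraries 41.6 to 58.9 CPM (median 45.3). Control replicate 5 was the lowest control, and every exposed library was above the highest control. The mean rose 2.19-fold, reaching 47.8 ± 6.23 CPM against 21.8 ± 3.84 CPM for controls (log2 fold change 1.13 ± 0.106 SE, edgeR adjusted p = 2.29e-09). Exposed replicates 1 to 4 lay at 41.7 to 49.5 CPM and replicates 5 to 10 at 41.6 to 58.9 CPM, and without replicates 1 to 4 the log2 fold change was 1.199.

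These opposite movements changed the balance between the beta subunit genes. The log2 ratio of Atp1b2 to Atp1b1 was -4.84 ± 0.372 in controls and -2.50 ± 0.330 in exposed libraries (SD, n = 10 each). The difference of 2.34 ± 0.157 SE was a 5.07-fold shift (2-sided permutation test, p = 2e-05, the smallest that these resamples can give; adjusted over 5 ratios, 2.5e-05). No exposed library reached the control range, which ended at -4.40, as the lowest exposed library stood at -3.10.

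Levels of different genes were compared per kilobase of exon. On that scale Atp1b1 made up 91.4 ± 0.970% of the RNA of Atp1b1, Atp1b2 and Atp1b3 in controls and 78.4 ± 4.36% in exposed libraries. The share of Atp1b2 went from 2.46 ± 0.559% to 10.6 ± 1.84% and that of Atp1b3 from 6.16 ± 0.541% to 11.0 ± 3.19%. Atp1b1 thus remained the most abundant beta subunit RNA in each group. The 3 genes together stood at 219.7 ± 19.65 CPM per kilobase in controls and 112.1 ± 14.87 in exposed libraries. The share of Atp1b3 therefore rose although its mean level did not.

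Fxyd1 encodes phospholemman, a small membrane protein that restrains the pump until it is phosphorylated. Control libraries lay at 144.8 to 174.5 CPM (median 156.7) and exposed libraries at 95.5 to 128.6 CPM (median 110.9), with no overlap. The mean went from 158 ± 8.73 to 111.5 ± 11.8 CPM, a 1.42-fold decrease (log2 fold change -0.50 ± 0.054 SE, edgeR adjusted p = 1.7e-08). Exposed replicates 1 to 4 were the lowest, at 95.5 to 109.3 CPM, below all of exposed replicates 5 to 10, at 110.5 to 128.6 CPM. Without those 4 libraries the log2 fold change was -0.40 (edgeR adjusted p = 2.35e-07).

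Of the 15 sodium pump genes listed, 13 were tested. Of these, 3 were higher and 5 lower, against 28.7% and 28.9% of all tested genes. The median log2 fold change of the 13 was -0.15 against 0.023 over all tested genes. Besides Atp1b1 and Fxyd1, the lower genes included Atp1b4 and Fxyd6. Atp1b4, a relative of the beta subunits that in mammals lies in the nuclear envelope, fell 4.48-fold to 4.50 ± 1.44 CPM, against 20.1 ± 2.85 CPM for controls (edgeR adjusted p = 2.2e-11). Fxyd6, another pump regulator, fell 1.54-fold to 101.7 ± 10.4 CPM, against 157.1 ± 11.3 CPM for controls (edgeR adjusted p = 8.46e-10). Fxyd1 made up 60.7 ± 2.17% of FXYD RNA per kilobase in controls and 60.9 ± 2.35% in exposed libraries, and Fxyd6 32.1 ± 2.14% and 29.6 ± 1.71%.

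The FXYD gene Fxyd3 was scarce. It stood at 0.321 and 0.652 CPM (edgeR adjusted p = 0.0214) and was not past the test without exposed replicates 1 to 4 (log2 fold change 0.094, adjusted p = 0.828). Atp1b3, a beta subunit of many tissues, stood at 32.1 ± 1.5 and 28.6 ± 4.90 CPM and missed the threshold (edgeR adjusted p = 0.0513). It was highest in exposed replicates 1 and 4, at 39.8 and 34.5 CPM, and without replicates 1 to 4 its log2 fold change was -0.31 (edgeR adjusted p = 4.38e-06). Fxyd2, Fxyd5 and Fxyd7 did not pass the test, with log2 fold changes of 0.43, -0.045 and -0.15 in edgeR and adjusted p of 0.114, 0.73 and 0.206. Fxyd4 had too few counts to be tested.

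**Figure D2:**
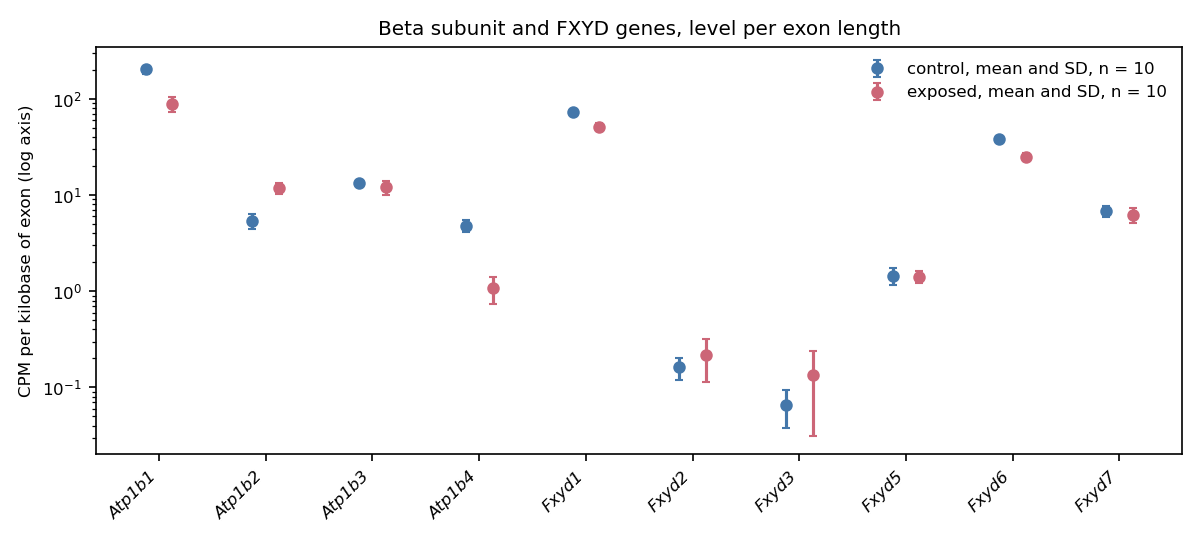
Mean and SD (n = 10 libraries per group) of tested beta subunit and FXYD genes, as CPM per kilobase of exon on a log axis. Atp1b1 is the highest beta subunit gene in both groups, at 200.9 in controls and 88.5 in exposed libraries, and Atp1b2 goes from 5.34 to 11.7.

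Clcn1, the chloride channel gene of the fibre membrane, was the member with the smallest spread around its change. Control libraries held 88.2 to 111.4 CPM (median 98.3) and exposed libraries 184.6 to 226 CPM (median 195.5). The lowest exposed library was far above the highest control, and 9 of 10 exposed libraries lay between 184.6 and 201.9 CPM. Exposed replicate 8 was the highest. The mean rose 1.99-fold, reaching 197.1 ± 11.5 CPM against 98.9 ± 6.92 CPM for controls (log2 fold change 1.00 ± 0.041 SE, edgeR adjusted p = 5.52e-15). In the annotation used, Clcn1 shares 445 exon bases with Fam131b on the opposite strand, whose level was 0.356 CPM for controls and 0.64 CPM for the exposed group.

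Scn4a, the sodium channel gene of adult skeletal muscle, changed least. Control libraries lay between 363.2 and 437.8 CPM (median 403.3) and exposed libraries between 404.1 and 534.3 CPM (median 489.8). The groups overlapped, and 9 of 10 exposed libraries were above the control mean. The mean was 1.18-fold higher, at 477.7 ± 44.4 CPM against 406.1 ± 21.0 CPM for controls (log2 fold change 0.23 ± 0.049 SE, edgeR adjusted p = 0.000351). Against a fold of 1.2 the rise was not past the threshold (edgeR glmTreat adjusted p = 0.755), where 29.0% of tested genes were. The exposed libraries fell into separate ranges, with replicates 1 to 4 at 404.1 to 452.7 CPM and replicates 5 to 10 at 474.5 to 534.3 CPM. Without replicates 1 to 4 the log2 fold change was 0.33 (edgeR adjusted p = 7.06e-07).

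Clcn1 therefore gained on Scn4a. The log2 ratio of Clcn1 to Scn4a was -2.04 ± 0.108 in controls and -1.27 ± 0.127 in exposed libraries. The difference of 0.77 ± 0.053 SE was a 1.70-fold shift with no overlap between groups (permutation p = 2e-05, adjusted 2.5e-05).

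**Figure D3:**
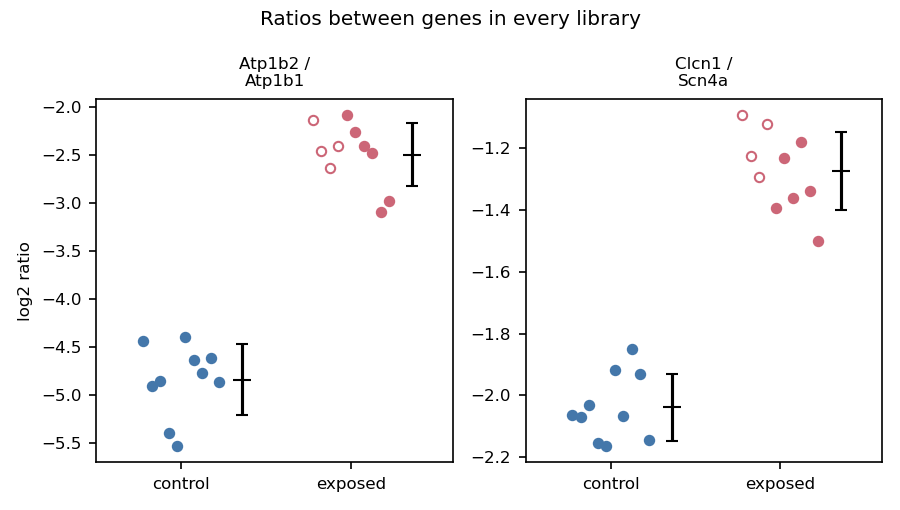
Log2 ratios of Atp1b2 to Atp1b1 and of Clcn1 to Scn4a in 10 control and 10 exposed libraries. Each point is a library, open points are exposed replicates 1 to 4, and black bars give the mean and SD. The groups are separate in both panels, with means of -4.84 and -2.50 for the beta subunit genes and of -2.04 and -1.27 for the channel genes.

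In level per kilobase of exon, the order in controls was Atp1b1 (200.9 ± 20.1 CPM per kilobase), Fxyd1 (72.3 ± 3.99), Scn4a (57.7 ± 2.98), Clcn1 (18.2 ± 1.27) and Atp1b2 (5.34 ± 0.940). No neighbours in that order overlapped. In exposed libraries Scn4a (67.8 ± 6.30 CPM per kilobase) was above Fxyd1 (51.0 ± 5.39), and Atp1b1 (88.5 ± 16.6), Clcn1 (36.3 ± 2.13) and Atp1b2 (11.7 ± 1.52) kept their places. There Scn4a overlapped with both Atp1b1 and Fxyd1, and the other neighbours did not overlap.

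Sodium channel genes moved in both directions. Of 14 listed, Scn4a among them, 9 were tested. Of these, 4 were higher and 3 lower, against 28.7% and 28.9% of all tested genes, with a median log2 fold change of 0.082. With library size as the only scaling, 5 were higher and 1 lower. The auxiliary subunit gene Scn4b, which is abundant in muscle, did not pass the test, at 427.9 ± 27.6 CPM for controls and 417.4 ± 54.4 CPM for the exposed group (edgeR adjusted p = 0.646). Exposed replicates 1 to 4 lay at 334.8 to 381.3 CPM, below every control, and replicates 5 to 10 at 386.6 to 475.1 CPM. Scn3a rose 1.34-fold from 3.73 CPM and the auxiliary subunit Scn2b 1.29-fold from 3.28 CPM, while the auxiliary subunit Scn3b fell 1.49-fold from 5.90 CPM (edgeR adjusted p of 0.00209, 0.00216 and 0.00756). Scn7a, a sodium-sensing relative also known from Schwann cells, rose 1.68-fold from 22.3 CPM (edgeR adjusted p = 0.00442). It did not pass the test without exposed replicates 1 to 4, the libraries with high nerve markers (log2 fold change 0.26, edgeR adjusted p = 0.106). Scn4b was chosen for mention after its values were seen.

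Among 22 genes listed as chloride channels, their relatives and partners, Clcn1 included, 17 were tested. Of these, 5 were higher and 5 lower, near the 28.7% and 28.9% of all tested genes, with a median log2 fold change of 0.055. With library size as the only scaling, 7 were higher and 3 lower, and with upper-quartile factors 6 and 4. Among the higher genes, Clcn1 was followed by Ano5, an anoctamin of muscle membranes, with a 1.63-fold rise from 125.7 ± 11.4 CPM (edgeR adjusted p = 9.03e-11). Ano6, a related lipid scramblase, rose 1.26-fold from 72.0 ± 2.96 CPM (edgeR adjusted p = 3.8e-09). Ostm1, partner of the lysosomal exchanger Clcn7, fell 1.66-fold from 19.0 ± 1.43 CPM, and the endosomal exchanger gene Clcn4 fell 1.26-fold from 52.2 ± 2.65 CPM (edgeR adjusted p of 2.7e-11 and 6.8e-08). The groups did not overlap for any of these 4 genes, while 17.4% of all tested genes were without overlap. The 4 were named for the smallest p in the list, a choice that favours separate groups.

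Of 19 sodium and chloride transporters and their kinases, 6 were higher and 8 lower, against 28.7% and 28.9% of all tested genes. The median log2 fold change of the list was -0.16. Slc12a2, which brings sodium, potassium and chloride into cells together, rose 2.00-fold to 195.6 ± 15.4 CPM, against 97.7 ± 6.42 CPM for controls (edgeR adjusted p = 2.36e-14). Slc12a4, which exports potassium with chloride, fell 2.12-fold to 24.1 ± 3.99 CPM, against 51.0 ± 6.71 CPM for controls (edgeR adjusted p = 3.28e-10). The anion exchanger Slc4a3 fell 2.42-fold and Wnk2, of the WNK kinases that control such cotransporters, rose 2.56-fold (edgeR adjusted p of 2.25e-11 and 2.34e-13).

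Of 21 regulators and partners of the pump and channels, 17 were tested. Of these, 11 were higher and 5 lower, against 28.7% and 28.9% of all tested genes, with a median log2 fold change of 0.19. With library size as the only scaling, 11 were higher and 3 lower. Nedd4l, a ubiquitin ligase that removes sodium channels from the membrane, rose 2.16-fold from 30.5 ± 3.47 CPM (edgeR adjusted p = 1.06e-12). Prkcq, which encodes protein kinase C theta, rose 1.88-fold, and Sptb, a spectrin of the membrane skeleton, 1.70-fold (edgeR adjusted p of 1.31e-13 and 9.31e-12). Mbnl1, a splicing factor needed for adult splicing of Clcn1 RNA, rose 1.49-fold from 346.5 ± 10.4 CPM (edgeR adjusted p = 2.92e-10). Splicing of Clcn1 itself cannot be read from counts per gene.

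**Figure D4:**
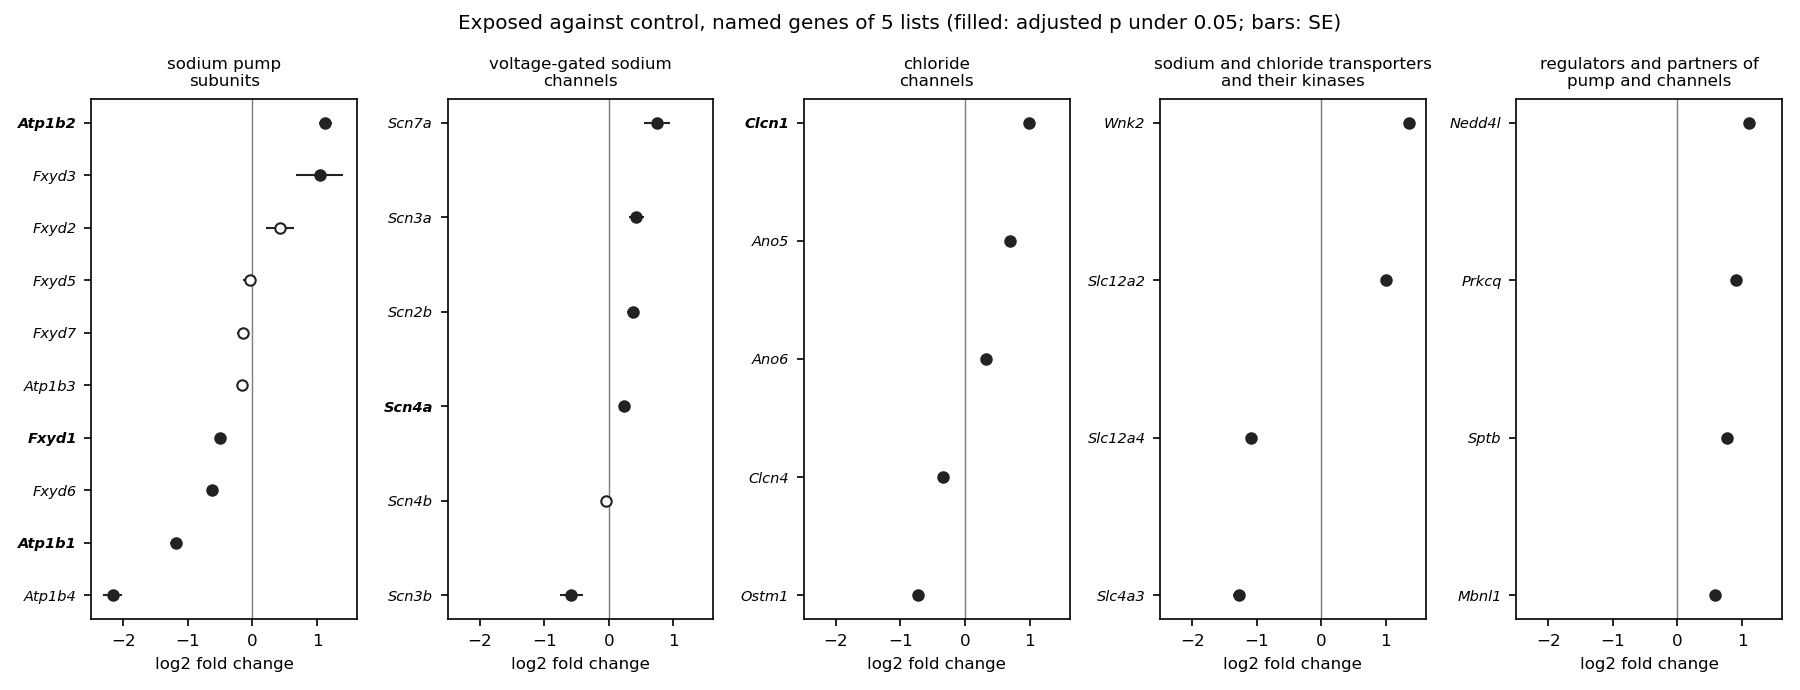
Log2 fold change (exposed against control) of genes of 5 lists that the text names, with bars for the SE over 10 libraries per group. Filled points passed the edgeR test at an adjusted p under 0.05, open points did not, and gene names in bold are the 5 members, which span -1.18 (Atp1b1) to 1.13 (Atp1b2).

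The genes most like each member were sought among 7248 others with a mean of at least 10 CPM, by the root mean square difference of log2 CPM from the control mean over the 20 libraries. For Clcn1 these were Slc12a2 (0.0892 log2 units), Eif4g3, a translation initiation factor gene (0.0994), and Prkcq (0.103). Slc12a2 and Prkcq thus stood both in the lists above and nearest to Clcn1. For Atp1b1 they were the sarcomere genes Ldb3 (0.142) and Myom3 (0.149) with the kinase gene Alpk3 (0.145) between them. For Atp1b2 they were Gpd2, a mitochondrial glycerol phosphate dehydrogenase (0.173), the muscle creatine kinase Ckm (0.188) and the splicing regulator Rbfox1 (0.194). Ensa (0.0834), the mitochondrial thioredoxin Txn2 (0.0839) and Larp4b (0.0893) were nearest to Fxyd1. Edc4 (0.0709), Ppp6r2 (0.0741) and Dennd4c (0.0749) were nearest to Scn4a. The measure favours genes with a like size of change, and all of these values share the same libraries and scaling factors.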

How the data were processed

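RNA from 20 soleus samples was sequenced as ribosomal RNA-depleted, paired-end libraries made from 90 ng of total RNA, per the labels' protocols. The authors deposited raw read counts per Ensembl gene. The submitters' processing notes name MultiQC 1.15, Subread, featureCounts 1.5.1, edgeR and GRCm39; the labels used here state neither strand setting nor treatment of shared reads. Symbols matched 51948 of the rows (97.6% of counts), and exon lengths came from GENCODE M21 on GRCm38.

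Counts were tested in R 4.3.3 with edgeR 4.0.16 (filterByExpr, minimum count 10 and total 15; TMM; robust quasi-likelihood; Benjamini-Hochberg over 16778 genes, threshold 0.05). Each SE belongs to the difference in mean log2 CPM between groups (prior count 2). Ratios, 5 in all, were compared by 2-sided permutation tests (100000 resamples, scipy 1.17.1). Nothing in the labels states more on replicates than 10 mice per group, so a p-value covers only the spread among these libraries, which may be technical. The fit was tested on simulated data with 200 changed genes among 16612. It recovered 48.0% of 1.25-fold, 60.0% of 1.5-fold, 96.0% of 2-fold and 100% of 3-fold changes, with 7 false among 159 calls. In the data 57.6% of tested genes were called. The simulation, with few changed genes, thus does not give the error rate or the effect of scaling under so wide a change.

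Members and lists were chosen with earlier results of these data known. Beside members, the text names up to 4 genes per list by smallest p at a mean of at least 1 CPM, tested pump genes, and the 3 genes most like each member; some genes, and the ratios that use them, are not reported here. Alternatives were DESeq2 1.42.0 (size factors, test), upper-quartile and library size scaling, limma 3.58.1 voom weights, other filters, scaling without mitochondrial and the 10 most abundant genes, a prior of 2 counts in ratios, a fold of 1.2, the sample number as a block, and libraries left out.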

Additional observations from a re-analysis of the deposited data

Results flagged for a closer look

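A library far from the rest of its group was looked for in 106 groups of 10 libraries (53 genes and ratios), and chance alone flags about 1 in 20 groups. In 11 cases the gap to the nearest library exceeded Dixon's 95% critical value. Among the members this was Clcn1 in exposed replicate 8, at 226 CPM against 201.9 for the next library. Prkcq was also highest in exposed replicate 8, at 191.7 CPM (next 165.2). Exposed replicate 10 stood apart with 8.04 CPM of Atp1b4 (next 5.19) and 1035 CPM of Myh2 (next 333.5). Exposed replicate 1 was lowest for Myh4, at 8006 CPM (next 12330), and for Ppp6r2, at 79.0 CPM (next 95.0). Clcn4 was low in exposed replicate 2, at 35.9 CPM (next 40.4), and high in control replicate 3, at 58.1 CPM (next 53.2). The other control values were 67.7 CPM of Slc12a4 in replicate 4 (next 57.3), 1632 CPM of Myh1 in replicate 5 (next 2923) and 141.1 CPM of Ensa in replicate 7 (next 127.5).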

How the results depend on the processing

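The 5 members kept their direction and call in 154 of 155 alternative results, the exception being Scn4a against a fold of 1.2 (log2 fold change 0.2345, edgeR glmTreat adjusted p = 0.755). With each library left out in turn, log2 fold changes ran from -1.23 to -1.14 for Atp1b1, 1.07 to 1.17 for Atp1b2, -0.53 to -0.48 for Fxyd1, 0.97 to 1.01 for Clcn1 and 0.21 to 0.26 for Scn4a. Against a fold of 1.2, 4864 of all tested genes were called, or 29.0%. By list, these were 7 of 13 sodium pump genes, 2 of 9 sodium channels and 5 of 17 in the chloride channel list. Of the other lists, 9 of 19 transporters and kinases and 9 of 17 regulators were called. Scaling by library size alone took the share of higher genes among all calls from 49.8% to 61.3%. The sample numbers did not pair the libraries: no same-numbered pair correlated above 0.1 (from -0.13 to 0.098). Over all genes tested, 9470 were called with the replicate block in place of 9663, and the block changed no member's call. The ratios of Atp1b2 to Atp1b1 and of Clcn1 to Scn4a stayed past the threshold with a prior of 2 counts, with the replicate block, without exposed replicates 1 to 4 and with each library left out. Fxyd5, not called, changed sign with upper-quartile scaling (0.015), library size alone (0.040) and without control replicate 7 (0.027), with a range of -0.0919 to 0.0268 over single libraries left out. Atp1b2, with 360 to 2112 counts per library, is the member that depth limits most.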
